A study of Mus musculus with 13 samples.

Results

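The 9 genes described here encode the enzyme that makes itaconate and 8 enzymes that carry out steps of the citrate cycle in mitochondria or their counterparts in the cytosol. They are *Acod1*, *Cs*, *Aco1*, *Idh1*, *Idh2*, *Idh3a*, *Ogdh*, *Fh1* and *Mdh1*. They were taken by symbol from the 24445 genes of the count table, with earlier results of these data known. For each symbol the transcript with the most reads over the 12 libraries used in the fit was taken, and all 9 passed the filter on low counts.

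The citrate cycle oxidises acetyl groups to carbon dioxide in mitochondria. Citrate synthase makes citrate, aconitase turns it into isocitrate through cis-aconitate, and the later enzymes lead through 2-oxoglutarate, succinate, fumarate and malate back to oxaloacetate. In macrophages activated by LPS, a component of the bacterial outer membrane, ACOD1 removes carbon dioxide from cis-aconitate to give itaconate, which inhibits succinate dehydrogenase. Citrate that leaves the mitochondrion is cleaved in the cytosol by ACLY to acetyl-CoA and oxaloacetate, so citrate is the substrate of the enzyme deleted in these mice.

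RNA-seq was measured in bone marrow-derived macrophages (BMDMs) from female mice that carry floxed *Acly* alleles. Control mice (AclyM-WT) are *Acly* fl/fl. In AclyM-KO mice Cre is expressed from *Lyz2*, a gene of myeloid cells, and removes a floxed exon of *Acly* in those cells. BMDMs were grown from bone marrow in medium conditioned by L929 cells. There were 3 libraries of AclyM-WT and 3 of AclyM-KO BMDMs after 3 h LPS, and 4 of AclyM-WT and 3 of AclyM-KO BMDMs after 24 h LPS. Unstimulated libraries were not analysed here, so every change over time is between 24 h and 3 h of LPS. Nothing states that the replicates of a group came from separate mice or cultures, and p-values measure the spread between these libraries, which may be technical.

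Total counts were 21274102 to 59577343 in 12 libraries and 34467 in AclyM-WT 24 h replicate 1. In that library 1 count stood for 22.4 CPM (counts scaled to a common library size), against 0.0156 to 0.0523 CPM in the others, and 8 of the 9 genes held 0 to 4 counts. *Acod1* had 117 counts there, a share of 0.339% with a 95% Wilson interval of 0.283% to 0.407%. This covers counting error only. Its share was 0.321% to 0.366% in the 3 h libraries and 0.534% to 0.565% in the other 24 h libraries. By this share of a single gene the library stood with the 3 h libraries. Scaled in a fit of all 13 libraries, *Acod1* was at 2620 CPM there and at 5050 to 5250 CPM in the other AclyM-WT 24 h libraries. The 3 h libraries were at 3480 to 4080 CPM in the fit of 12. These fits were scaled apart, and the scaling of the shallow library rests on its 34467 counts, so its level does not place it with either time. What this library is was not tested. The library was left out of the fit, and values with it follow each 24 h result that it moves. *Acly* itself was 106 CPM ± 1.17 (SD, n = 3) in AclyM-WT and 41.8 ± 4.25 in AclyM-KO BMDMs at 3 h, and 110 ± 2.77 and 29.9 ± 0.759 at 24 h. Its log2 fold change was -1.34 (SE 0.06) at 3 h and -1.88 (SE 0.06) at 24 h. The 8 macrophage markers were present in every group, and their summed level was 9980 to 10100 CPM in AclyM-WT and 6920 to 7850 CPM in AclyM-KO at 3 h, and 6030 to 6330 and 4520 to 4630 CPM at 24 h. Without *Lyz2*, the gene that drives Cre, the other 7 summed to 4720 to 4860 and 4640 to 4910 CPM at 3 h, and to 3630 to 3810 and 3580 to 3770 CPM at 24 h. Of these 7, 1 was called higher in AclyM-KO at 3 h, *Adgre1* (0.24 on the log2 scale), and 3 were called lower, *Mertk* (-0.31), *Fcgr1* (-0.26) and *Cd14* (-0.15). At 24 h *Mertk* (-0.33) was the only one of the 7 called. The part of the markers in the differences between genotypes was not tested. The 28 markers of other cell types summed to 4.67 to 16.8 CPM, and all 3 erythroid markers were at 0.

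*Acod1*, which encodes the itaconate-forming decarboxylase, was by far the most abundant of the 9 per length of transcript. Its mean level was 1390 CPM per kb in AclyM-WT and 1470 in AclyM-KO at 3 h, and 1910 and 1900 CPM per kb at 24 h (n = 3 in each group). It ranked 22 of 17587 genes with counts on this scale over the 12 libraries. The next most abundant were *Cs*, citrate synthase, at 31.7 to 40.0 CPM per kb, and *Idh1*, the cytosolic isocitrate dehydrogenase that makes NADPH, at 22.2 to 33.1 CPM per kb as group means. *Ogdh*, the first subunit of 2-oxoglutarate dehydrogenase, and *Mdh1*, the cytosolic malate dehydrogenase, had group means of 22.7 to 24.4 and 17.9 to 26.4 CPM per kb. *Idh2*, the mitochondrial isocitrate dehydrogenase that makes NADPH, was at 15.8 and 17.2 CPM per kb in AclyM-WT and AclyM-KO at 3 h and at 7.99 and 7.01 at 24 h. The lowest were *Aco1*, the cytosolic aconitase and iron regulatory protein, *Fh1*, fumarase, and *Idh3a*, the catalytic subunit of the isocitrate dehydrogenase of the cycle proper, whose group means lay between 2.64 and 7.69 CPM per kb.

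**Figure D1:**
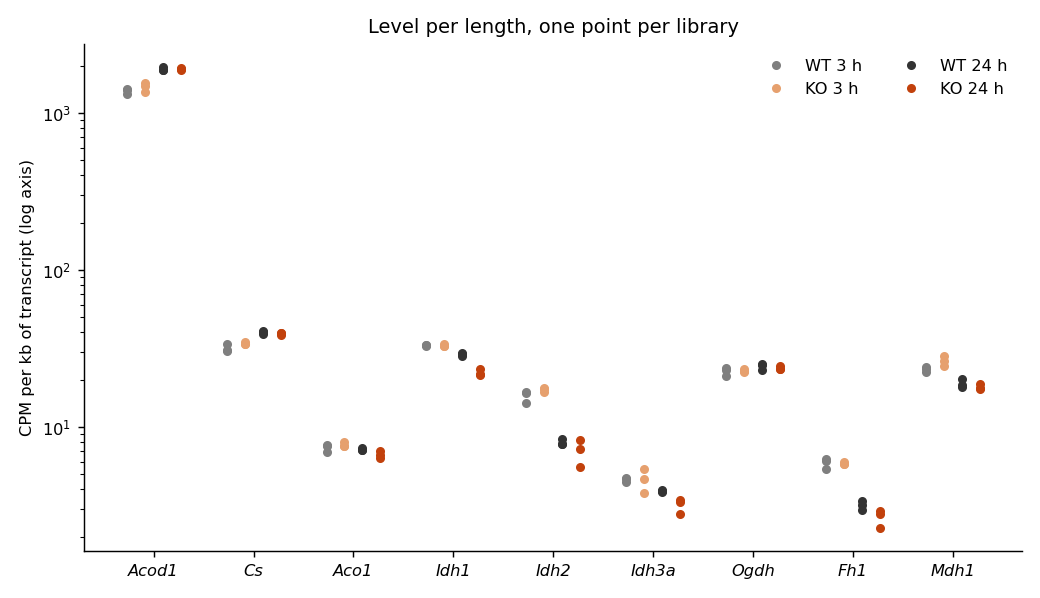
Level of each gene per length, in CPM per kb of transcript on a log axis, with 1 point for each of the 12 libraries and a colour for each group of 3. *Acod1* sits at 1390 to 1910 CPM per kb as group means, and the other 8 genes at 2.64 to 40.0 CPM per kb.

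The order of these levels per length differed between the groups at a few places. *Idh1* and *Cs* were neighbours with overlapping libraries in AclyM-WT at 3 h, and *Cs* was above *Idh1* without overlap in the other 3 groups. In AclyM-WT at 24 h *Idh1* (29.0 CPM per kb) lay above *Ogdh* (24.4), and in AclyM-KO at 24 h it lay at 22.2 beside *Ogdh* at 23.7, with overlapping libraries. *Fh1* lay above *Idh3a* without overlap in both 3 h groups. At 24 h *Idh3a* was above *Fh1*, at 3.90 against 3.15 CPM per kb in AclyM-WT without overlap, and at 3.17 against 2.64 in AclyM-KO with overlap. *Mdh1* and *Ogdh* overlapped in AclyM-WT at 3 h, and in AclyM-KO at 3 h *Mdh1* (26.4 CPM per kb) lay above *Ogdh* (22.8) without overlap. At 24 h *Ogdh* lay above *Mdh1* without overlap, at 24.4 against 18.9 in AclyM-WT and 23.7 against 17.9 in AclyM-KO. *Idh2* and *Aco1* overlapped in AclyM-KO at 24 h. All other neighbours in the order were apart in all 3 libraries of each group.

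On the GRCm38 build *Acod1* lies at chr14:103046977-103056573 on the plus strand, *Idh1* at chr1:65158616-65186500 and *Idh2* at chr7:80094846-80115392, both on the minus strand. The annotation places no other gene over *Acod1*, *Aco1*, *Idh1*, *Idh3a* or *Ogdh*. *Fh1* shares its 5' end with *Kmo* and *Mdh1* with *Wdpcp*, each on the opposite strand, and *Cs*, *Idh2* and *Mdh1* each hold 1 short or uncharacterised gene on their own strand (*Gm23182*, *Gm45203* and *Gm22990*). The strand setting of the authors' counting is not given in the sources used here, so reads of such pairs could not be told apart.

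RefSeq's promoter windows, 250 bases before to 50 after each start (GRCm38.p6), were given for 8 of the 9 genes, all but *Idh3a*. The stretch from 250 to 21 bases before the start is shown for the gene that makes itaconate, for the gene whose level differed between the genotypes and for the gene whose level changed most over time, to set the 3 side by side. Capitals mark the TATA box (TATAAA) and the GC box (GGGCGG), both searched on both strands. A GC box on the other strand reads as its reverse complement, CCGCCC.
Acod1 chr14:103046762-103046991 (+): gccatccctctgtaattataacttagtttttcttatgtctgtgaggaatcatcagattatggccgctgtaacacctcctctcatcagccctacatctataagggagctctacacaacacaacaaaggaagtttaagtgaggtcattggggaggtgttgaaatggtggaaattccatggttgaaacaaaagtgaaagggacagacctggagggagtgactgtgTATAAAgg
Idh1 chr1:65186500-65186729 (-): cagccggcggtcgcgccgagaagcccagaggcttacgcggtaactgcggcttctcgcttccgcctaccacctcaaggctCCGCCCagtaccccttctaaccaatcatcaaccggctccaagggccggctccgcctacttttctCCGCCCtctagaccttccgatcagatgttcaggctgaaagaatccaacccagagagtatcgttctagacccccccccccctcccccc
Idh2 chr7:80115371-80115600 (-): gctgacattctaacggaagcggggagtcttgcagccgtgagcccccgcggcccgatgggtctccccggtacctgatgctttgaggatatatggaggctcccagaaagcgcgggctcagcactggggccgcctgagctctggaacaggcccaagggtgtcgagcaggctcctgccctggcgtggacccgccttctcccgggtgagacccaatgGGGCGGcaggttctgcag

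The *Acod1* stretch holds a TATA box 28 bases before the start and no GC box, the *Idh1* stretch 2 GC boxes and no TATA box, and the *Idh2* stretch 1 GC box and no TATA box. Over the whole windows, 1 of the 8 genes (*Acod1*) had a TATA box, against 13.6% of all 32851 windows. A GC box was found in 7 of the 8 genes, all but *Acod1*, against 35.7% of windows, and CCAAT in 7 of the 8, all but *Aco1*, against 37.4%. The NF-kappaB motif was searched as GGGRNNYYCC, where R is A or G, Y is C or T and N is any base. It was found in a window of *Idh2*, in a single one of the windows of *Ogdh* and in 8.46% of all windows. Sites that differ from these letters were not sought in any gene. A gene with several windows was counted when any of them held the motif, and a match of letters is a description and not a binding site.

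The levels in each library show which of the 9 genes separated the groups. *Acod1* was at 3740, 3482 and 3696 CPM in AclyM-WT and at 4076, 3574 and 3892 CPM in AclyM-KO BMDMs at 3 h. At 24 h it was at 4949, 4935 and 5141 CPM in AclyM-WT and at 5003, 5078 and 4908 CPM in AclyM-KO. All 24 h libraries lay above all 3 h libraries, and the genotypes overlapped at both times. *Idh1* was at 74.8, 75.6 and 75.9 CPM in AclyM-WT and at 74.8, 74.8 and 76.8 CPM in AclyM-KO at 3 h. At 24 h it was at 64.7, 66.4 and 67.3 CPM in AclyM-WT and at 49.8, 53.0 and 49.1 CPM in AclyM-KO. The genotypes coincided at 3 h, and at 24 h all AclyM-KO libraries lay below all AclyM-WT libraries, which in turn lay below all 3 h libraries.

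*Idh2* was at 28.7, 29.2 and 24.9 CPM in AclyM-WT and at 30.3, 30.8 and 29.0 CPM in AclyM-KO at 3 h. At 24 h it was at 13.6, 14.5 and 13.7 CPM in AclyM-WT and at 9.72, 14.4 and 12.6 CPM in AclyM-KO. The 2 times were far apart, and the genotypes overlapped at each. *Fh1* was at 15.9, 16.4 and 14.2 CPM in AclyM-WT and at 15.2, 15.2 and 15.7 CPM in AclyM-KO at 3 h. At 24 h it was at 8.32, 7.76 and 8.83 CPM in AclyM-WT and at 7.62, 5.99 and 7.29 CPM in AclyM-KO. The AclyM-KO libraries lay just below the AclyM-WT libraries at 24 h, and both lay far below the 3 h libraries. *Fh1* and *Idh3a* rest on the fewest reads of the 9, 149 to 578 and 178 to 613 counts per library, and *Acod1* rests on 74123 to 336633.

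**Figure D2:**
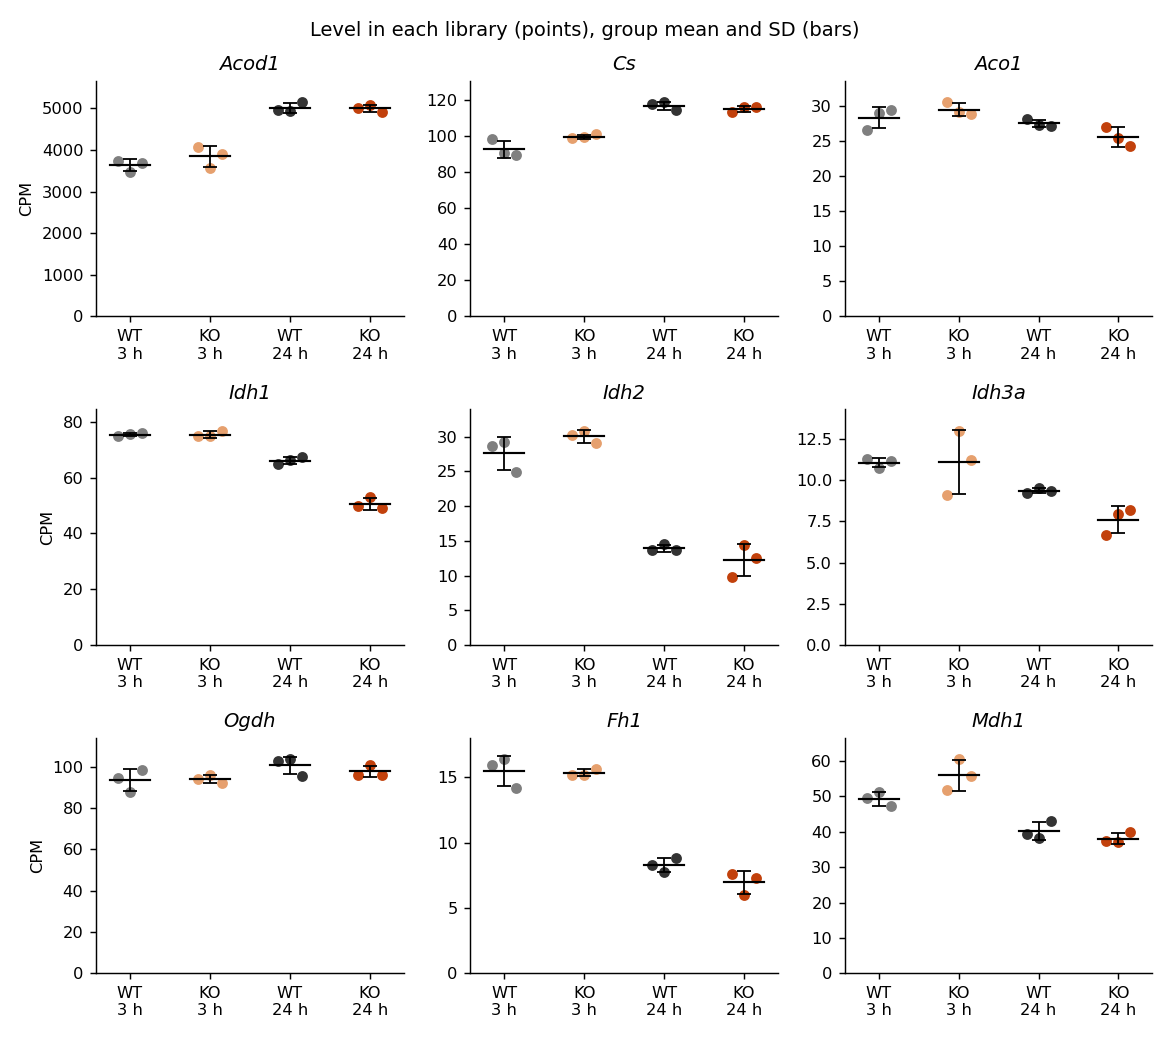
Level of each of the 9 genes in CPM, on axes that start at 0, with 1 point per library and the mean and SD of each group of 3 libraries. *Idh1* in AclyM-KO at 24 h (49.1 to 53.0 CPM) lies below AclyM-WT at 24 h (64.7 to 67.3 CPM), and *Idh2* and *Fh1* are lower at 24 h than at 3 h in both genotypes.

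The first comparison asked how these genes differed between the genotypes after 3 h LPS. None of the 9 was called at an adjusted p under 0.05 by edgeR's quasi-likelihood test with Benjamini-Hochberg adjustment, and 15.4% of the 11942 genes tested were. The count was 0 by DESeq2 on the same 12 libraries as well, and 1 of the 9 (*Mdh1*) had an unadjusted p under 0.05. In bulk RNA, fewer cells of a type and less RNA per cell cannot be told apart. *Mdh1*, which works in the malate-aspartate shuttle, was at 49.5, 51.1 and 47.2 CPM in AclyM-WT and at 51.7, 60.4 and 55.7 CPM in AclyM-KO at 3 h, without overlap. Its log2 fold change was 0.18 (SE 0.07) with an unadjusted p of 0.00948 and an adjusted p of 0.0584 in edgeR's test. Without AclyM-KO 3 h replicate 1 it was 0.24 with an adjusted p of 0.0109, and it was called in 3 of the 22 alternatives run. *Cs* was the other gene without overlap, at 98.3, 90.4 and 89.5 CPM in AclyM-WT and 98.8, 99.4 and 101 CPM in AclyM-KO, with a log2 fold change of 0.11 (SE 0.05) and an adjusted p of 0.182. Groups without overlap in the direction of higher AclyM-KO levels made up 15.4% of all genes at 3 h.

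For *Acod1* the log2 fold change at 3 h was 0.08, with a 95% interval of -0.02 to 0.18 and an adjusted p of 0.276 in edgeR's test. Without AclyM-KO 3 h replicate 2, its lowest AclyM-KO library, it was 0.14 with an adjusted p of 0.0308. The log2 fold change of *Idh1* at 3 h lay between -0.11 and 0.11 at 95%, around 4.5e-04. Those of *Idh2* (0.12), *Aco1* (0.06), *Idh3a* (0.01), *Ogdh* (0.01) and *Fh1* (-0.01) did not pass the test either. The median over the 9 genes was 0.06, against -0.01 over all genes tested.

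The same comparison after 24 h LPS gave 1 call among the 9, *Idh1*, against a background of 13.9% of all genes tested, or 5.59% for lower levels in AclyM-KO. *Idh1* fell from 66.2 CPM ± 1.31 (SD, n = 3) in AclyM-WT to 50.6 ± 2.07 in AclyM-KO. Its log2 fold change was -0.39 (SE 0.05), a ratio of 0.765, with an adjusted p of 5.48e-06 in edgeR's test. With all 13 libraries it was -0.38 with an adjusted p of 3.94e-05. It stayed short of the 0.75 on the log2 scale that the study asked of a changed gene, which 1.38% of genes passed at 24 h together with the adjusted p, and 2.01% at 3 h. The other *Idh1* transcript in the table gave -0.39 and an adjusted p of 5.19e-06, from largely the same reads. Among 22 alternatives *Idh1* was called in 21. The exception was DESeq2 on all 13 libraries, with -0.37 and an adjusted p of 0.711, where 61 genes in all were called.

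The difference of the 24 h effect from the 3 h effect was itself tested, as the interaction of genotype and time. *Idh1* was again the only one of the 9 that was called, against 9.59% of all genes tested. Its interaction was -0.39 (SE 0.08) on the log2 scale, with an adjusted p of 9.01e-04 in edgeR's test, and it was called in 20 of 21 alternatives. *Mdh1* had an interaction of -0.27 with an adjusted p of 0.0672, and without AclyM-KO 3 h replicate 1 it had -0.34 and 0.0104. *Idh2* had -0.31 with an adjusted p of 0.162 (0.0374 without AclyM-KO 24 h replicate 2), and *Idh3a* -0.31 with 0.227 (0.0404 without AclyM-KO 3 h replicate 1).

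The other 8 genes were not called at 24 h. *Idh3a* was at 9.22, 9.51 and 9.36 CPM in AclyM-WT and at 6.68, 7.96 and 8.18 CPM in AclyM-KO, with a log2 fold change of -0.30 (SE 0.11) and an adjusted p of 0.0651 in edgeR's test. The groups did not overlap, and the call depended on the fit, with adjusted p-values of 0.0233 with only the libraries compared, 0.0447 under upper-quartile factors and 0.0313 without the low-count filter. Leaving out AclyM-KO 3 h replicate 1 or 2 gave 0.0263 or 0.0243. *Fh1* had -0.26 (SE 0.10) and 0.085, also without overlap. *Idh2* had -0.19 (SE 0.10) and 0.242, and without AclyM-KO 24 h replicate 2, its highest AclyM-KO library, it had -0.32 and an adjusted p of 0.0452. *Aco1* was at 28.1, 27.2 and 27.1 CPM against 27.0, 25.4 and 24.2 CPM, without overlap, with -0.11 (SE 0.07) and an adjusted p of 0.337. *Mdh1* (-0.08), *Ogdh* (-0.04) and *Cs* (-0.02) were nearer to 0.

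*Acod1* had a log2 fold change of -0.0034 at 24 h, with a 95% interval of -0.10 to 0.09. With all 13 libraries it was 0.09 with an adjusted p of 0.665 in edgeR's test. Its sign also turned without AclyM-KO 24 h replicate 3 (0.0078) and without AclyM-WT 24 h replicate 4 (0.01). In all, 4 of the 9 genes (*Idh1*, *Idh3a*, *Fh1* and *Aco1*) had AclyM-KO libraries below all AclyM-WT libraries at 24 h, against 14.9% of all genes. The fold changes of all 9 were below 0 at 24 h in the fit of 12 libraries, against 48.7% of all genes, and 8 of 9 were below 0 in the fit of 13. The median was -0.11 over the 9 and 0.01 over all genes. For the interaction all 9 were below 0 as well (8 of 9 with 13 libraries), against 47.9% of all genes, with medians of -0.25 and 0.01. These counts of signs include 8 genes that did not pass the test.

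**Figure D3:**
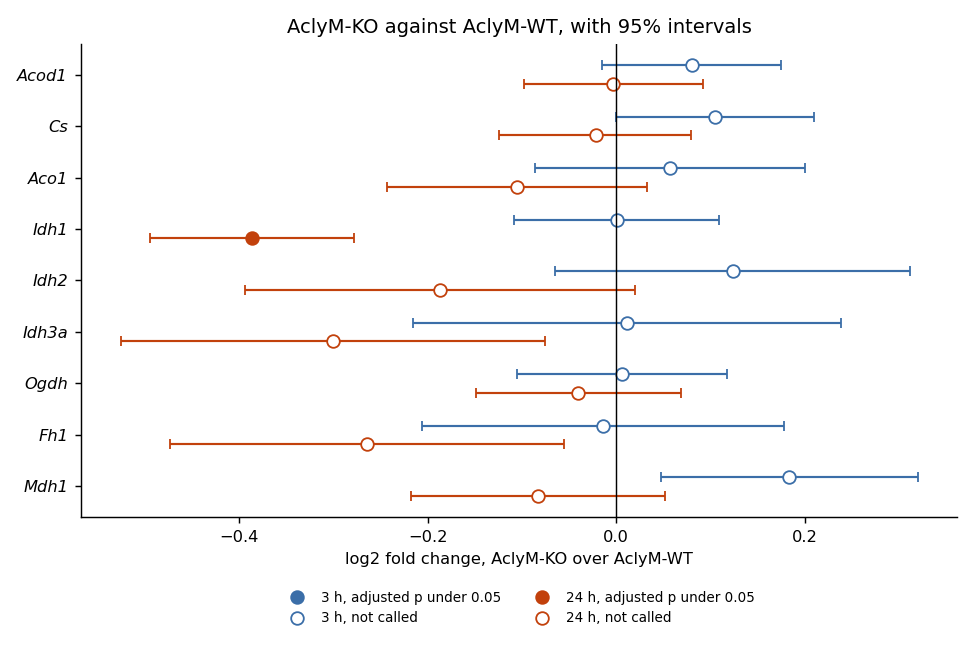
Log2 fold change of AclyM-KO over AclyM-WT for each gene after 3 h and 24 h LPS, with 95% intervals from the edgeR fit of 12 libraries. Filled points have an adjusted p under 0.05, which holds for *Idh1* at 24 h (-0.39) and for no other gene or time.

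Between 3 h and 24 h of LPS most of the 9 genes changed, as did most genes in the table. In AclyM-WT 2 of the 9 rose and 5 fell, against a background of 74.9% of all genes called (38.9% higher and 36.0% lower). In AclyM-KO 2 rose and 6 fell, against 75.7% (39.4% and 36.3%). All p-values of the times are from edgeR's quasi-likelihood test with Benjamini-Hochberg adjustment. The 9 neutrophil markers summed to 11.9 to 15.3 CPM at 3 h and 3.44 to 4.70 CPM at 24 h. The sum of the 7 macrophage markers other than *Lyz2* was also lower at 24 h, as given with the depths. The part of these markers in the changes over time was not tested.

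The gene for itaconate synthesis and the gene for the first step of the cycle rose. *Acod1* rose by 0.46 on the log2 scale (SE 0.05, 1.38-fold, adjusted p 2.73e-10) in AclyM-WT and by 0.38 (SE 0.05, 1.30-fold, 1.62e-08) in AclyM-KO. With all 13 libraries the AclyM-WT value was 0.37 with an adjusted p of 0.00665. *Cs* rose by 0.33 (SE 0.05, adjusted p 6.8e-07) and 0.21 (SE 0.05, 4.91e-04), from 92.7 to 117 CPM and from 99.7 to 115 CPM.

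The 3 isocitrate dehydrogenase genes, *Fh1* and *Mdh1* fell by different amounts. *Idh2* fell by 0.99 on the log2 scale (SE 0.10, adjusted p 2.99e-10) in AclyM-WT and by 1.30 (SE 0.10, 1.77e-12) in AclyM-KO, to 0.504 and 0.406 of its 3 h level. *Fh1* fell by 0.89 (SE 0.10, adjusted p 1e-09) and 1.14 (SE 0.10, 1.35e-11), to 0.540 and 0.454. These were the 2 of the 9 genes called with a change over time beyond 0.75 on the log2 scale, in AclyM-WT and again in AclyM-KO. By the same rule 40.4% of all genes passed in AclyM-WT and 42.0% in AclyM-KO, each genotype taken alone. *Mdh1* fell by 0.29 (adjusted p 2.53e-04) and 0.56 (8.55e-09), and *Idh1* by 0.19 (0.00202) and 0.58 (4.83e-11). *Idh3a* fell by 0.24 (SE 0.11) and 0.55 (SE 0.11), and its adjusted p of 0.0449 in AclyM-WT was the weakest of these calls. Leaving out any 1 AclyM-WT library gave it an adjusted p of 0.0665 to 0.121.

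*Aco1* and *Ogdh* moved least. *Aco1* had a log2 fold change of -0.04 (SE 0.07, adjusted p 0.571) in AclyM-WT and fell by 0.21 (SE 0.07, 0.0085) in AclyM-KO, where the adjusted p without AclyM-KO 24 h replicate 3 was 0.0522. *Ogdh* was at 94.6, 87.6 and 98.4 CPM in AclyM-WT and at 93.9, 95.9 and 92.0 CPM in AclyM-KO at 3 h. At 24 h it was at 102, 103 and 95.6 CPM and at 96.1, 101 and 95.9 CPM. Its changes over time of 0.10 (adjusted p 0.0861) and 0.06 (0.355) were not called, but without AclyM-WT 24 h replicate 4 or 3 h replicate 3 the AclyM-WT value was 0.14 or 0.15, with adjusted p-values of 0.0328 and 0.0281.

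Smaller changes over time depended on the scaling. Upper-quartile factors moved the median change of all genes from 0.04 to 0.16 in AclyM-WT and from 0.05 to 0.15 in AclyM-KO. Under them *Idh1* (-0.07, adjusted p 0.225) and *Idh3a* (-0.12, 0.31) in AclyM-WT and *Aco1* (-0.10, 0.176) in AclyM-KO were no longer called, and *Ogdh* was called in both genotypes (0.22 and 0.16, with 4.66e-04 and 0.0082). The rise of *Acod1* and *Cs* and the fall of *Idh2* and *Fh1* were called in both genotypes in all 22 alternatives.

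**Figure D4:**
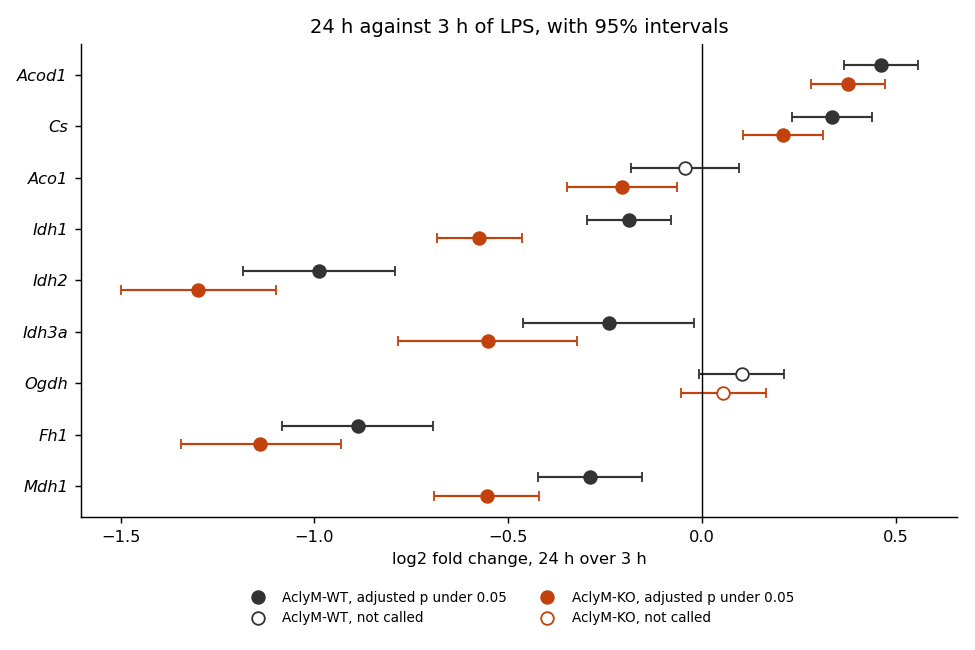
Log2 fold change of 24 h over 3 h of LPS for each gene in AclyM-WT and AclyM-KO BMDMs, with 95% intervals from the edgeR fit of 12 libraries, where filled points have an adjusted p under 0.05. *Acod1* and *Cs* lie above 0, *Idh2* and *Fh1* lie furthest below 0 (-0.99 and -0.89 in AclyM-WT, -1.30 and -1.14 in AclyM-KO), and *Ogdh* is called in neither genotype.

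The remaining genes of the pathway were read from 4 lists of 44 genes, of which 41 were tested. *Pdk4* and *Slc13a5* had 0 counts in all libraries and *Me3* had 0 to 3. At 3 h, 6 of the 41 rose in AclyM-KO and 1 fell, a share near the background of 15.4%. *Pcx*, pyruvate carboxylase, which makes oxaloacetate, rose from 1.22 to 2.89 CPM, with a log2 fold change of 1.25 (SE 0.21) and an adjusted p of 7.93e-05 in edgeR's test. *Slc13a3*, a plasma membrane transporter of dicarboxylates, rose from 4.28 to 7.38 CPM, with 0.78 (SE 0.16) and 8.03e-04. These were the only called list genes past 0.75 on the log2 scale for the genotype at either time, and *Me1*, at 0.79 with an adjusted p of 0.0593 at 3 h, was not called. The other calls at 3 h were *Mdh2* (0.31), *Sdhc* (0.20), *Pdp2* (0.46) and *Slc25a1* (0.39), which were higher in AclyM-KO, and *Got1* (-0.27), which was lower. *Sdhc* was not called at 3 h with all 13 libraries, where its adjusted p was 0.0759 in edgeR's test.

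At 24 h, 2 of the 41 rose and 5 fell, also near the background of 13.9%. The lower ones were *Pdk1* (-0.71), a kinase that inhibits pyruvate dehydrogenase, *Slc25a10* (-0.44), the mitochondrial dicarboxylate carrier, *Pdp2* (-0.39), a phosphatase that activates pyruvate dehydrogenase, *Idh3g* (-0.36), a regulatory subunit of the enzyme that holds IDH3A, and *Glud1* (-0.17), glutamate dehydrogenase. *Glud1* was not called with all 13 libraries, where its adjusted p was 0.121 in edgeR's test. The higher ones were *Pdk3* (0.40), another such kinase, and *Slc25a12* (0.26), a mitochondrial aspartate and glutamate carrier. Of the genotype effects at a single time, the naming rule given below covered only those of *Pcx* and *Slc13a3* at 3 h. The others were named after their values were seen. *Mdh2*, *Sdhc*, *Pdp2*, *Slc25a1*, *Slc25a10*, *Pdk1* and *Got1* were named by the rule for their interactions, and *Idh3g*, *Glud1*, *Pdk3* and *Slc25a12* by no part of it.

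The interaction was called for 8 of the 41, against 9.59% of all genes, with 7 below 0. *Pcx* had -1.06 (SE 0.25), *Pdp2* -0.85 (SE 0.17), *Slc25a10* -0.64 (SE 0.13), *Pdk1* -0.57 (SE 0.15) and *Slc25a1*, the mitochondrial citrate carrier, -0.53 (SE 0.09). *Slc25a1* was at 35.9, 33.1 and 34.4 CPM in AclyM-WT and at 43.7, 46.1 and 45.3 CPM in AclyM-KO at 3 h. At 24 h it was at 60.9, 59.8 and 57.9 CPM and at 51.2, 57.1 and 52.9 CPM. The AclyM-KO libraries lay above all AclyM-WT libraries at 3 h and below them at 24 h, but the 24 h difference was not called (-0.15, adjusted p 0.0921 in edgeR's test), and 14.9% of all genes showed such lower levels without overlap at 24 h. *Sdhc* (-0.29) of succinate dehydrogenase and *Mdh2* (-0.29), the mitochondrial malate dehydrogenase, were called with adjusted p-values of 0.0476 and 0.0221 in edgeR's test, and *Got1* (0.36), the cytosolic aspartate aminotransferase, with 0.0308. *Sdhc* kept its call in 9 of 21 alternatives, *Got1* in 11, *Pdk1* in 17 and *Mdh2* in 18, and with all 13 libraries the adjusted p of *Sdhc* was 0.0786. Over the 41 genes 78.0% were below 0 for the interaction, with a median of -0.11, against 47.9% and 0.01 over all genes.

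**Figure D5:**
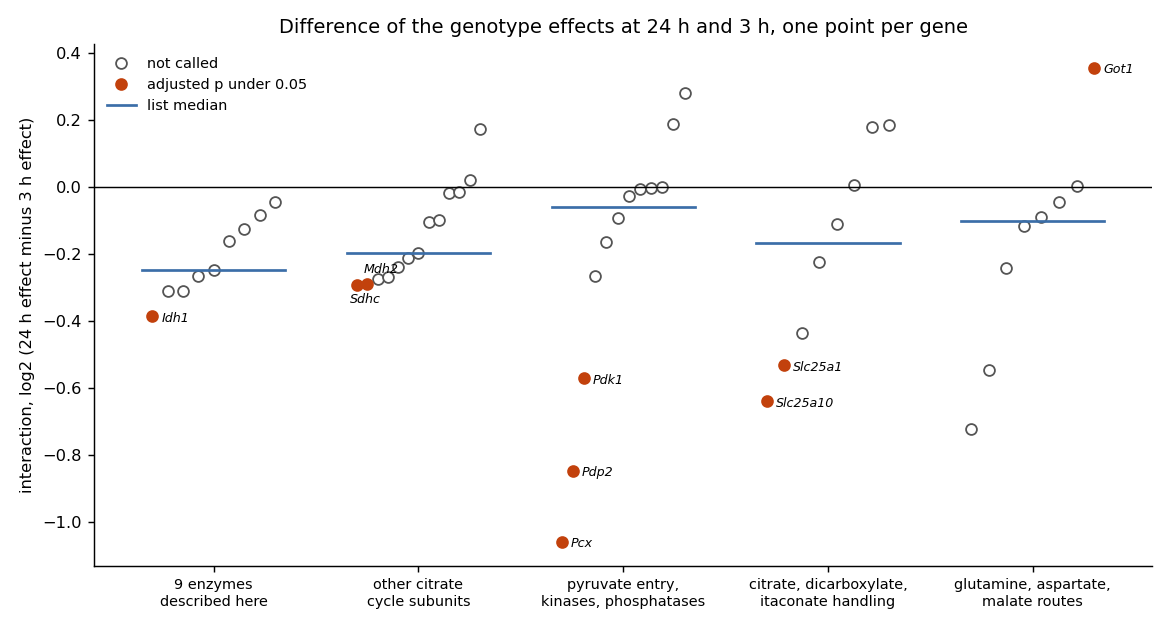
Difference of the genotype effects at 24 h and 3 h on the log2 scale, with 1 point per gene, for the 9 genes and the 4 other lists, where filled points have an adjusted p under 0.05 and bars are list medians. All 9 genes lie below 0, with *Idh1* (-0.39) the only one called, and the list genes reach from -1.06 (*Pcx*) to 0.36 (*Got1*).

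Over time 30 of the 41 list genes changed in AclyM-WT (19 rose and 11 fell) and 30 in AclyM-KO (16 rose and 14 fell), again near the backgrounds of 74.9% and 75.7%. *Me1*, the cytosolic malic enzyme, had the largest change, 3.17 (SE 0.21) in AclyM-WT, from 1.13 to 9.99 CPM, and 2.45 (SE 0.19) in AclyM-KO, from 1.91 to 10.6 CPM. *Suclg2*, a subunit of the succinyl-CoA synthetase that makes GTP, fell by 1.70 (SE 0.17) and 1.91 (SE 0.19), from 5.31 to 1.64 CPM and from 4.58 to 1.22 CPM. *Pcx* rose by 1.95 in AclyM-WT and by 0.89 in AclyM-KO. *Pdk1* fell by 1.11 in AclyM-WT, from 27.8 to 12.9 CPM, and by 1.68 in AclyM-KO, from 25.1 to 7.89 CPM.

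The genes with levels most like *Acod1* were sought among 6320 genes with a mean of at least 10 CPM, by the root mean square difference of log2 levels after each gene's own mean was taken away, over the 12 libraries. The 5 nearest were *H2-D1* (0.04), *Creb3* (0.04), *Ninj1* (0.05), a transcript that no table used here paired with a symbol (0.05) and *Vps35l* (0.05), against a median of 0.33. *H2-D1*, a class I histocompatibility gene, had group means of 1480, 1580, 2070 and 2020 CPM in AclyM-WT and AclyM-KO at 3 h and in AclyM-WT and AclyM-KO at 24 h. Its near-identical relatives could share its reads, so its values are uncertain. *Creb3*, a membrane-bound transcription factor, had 27.6, 29.0, 36.5 and 38.4 CPM in the same order, and *Ninj1*, a protein of plasma membrane rupture, 168, 179, 228 and 235 CPM. Among the 9 genes *Cs* was nearest to *Acod1*, at 0.09 and rank 140, and *Idh2* was the furthest, at 0.79. *Idh3a* was under the limit of 10 CPM and was not compared.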

How the data were processed

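RNA-seq was analysed in 13 libraries of BMDMs after LPS. Libraries of mRNA were strand-specific. The authors mapped the reads to mm10 by STAR 2.5.2b and counted tags over RefSeq transcripts in HOMER after a SAMtools filter. CASAVA 1.8.2 is also listed in the submitters' processing notes. The deposited values are raw counts per transcript, not normalized. The strand and isoform settings of the counting are not given in the sources used here.

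Of 35745 transcripts, 35628 were matched to a symbol through RefSeq and GENCODE tables. In R 4.3.3, edgeR 4.0.16 (limma 3.58.1) scaled counts by TMM, filtered them with filterByExpr, which left 19621 transcripts of 11942 genes, and fitted robust quasi-likelihood models to 12 libraries in 4 groups. P-values were adjusted over all transcripts by Benjamini and Hochberg's method, and a call is an adjusted p under 0.05. CPM use effective library sizes. Intervals are at 95%. Alternatives used DESeq2 1.42.0, other scalings and filters, all 13 libraries, single libraries left out and a replicate block. Code was tested on simulated data.

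All 9 genes and *Acly* were named. From the 4 lists the rule named genes past 0.75 on the log2 scale for genotype, those called for the interaction, and the 3 largest changes over time in each genotype. Genes and lists were chosen with earlier results of these data known.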

Additional observations from a re-analysis of the deposited data

Results flagged for a closer look

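In the 24 h AclyM-WT group replicate 1, the library of 34467 counts, stood apart from the other 3 for 7 of the 9 genes. The gap to the nearest library, divided by the range, was 0.922 for *Acod1*, 0.942 for *Cs*, 0.938 for *Aco1*, 0.944 for *Idh1*, 0.936 for *Idh2*, 0.97 for *Idh3a* and 0.925 for *Fh1*, above Dixon's 95% critical value for 4 samples in each case. Chance gives such a gap in about 1 of 20 groups of continuous values. In replicate 1 levels moved in steps of 22.4 CPM per count, and all genes but *Acod1* held 0 to 4 counts. *Aco1*, *Idh2*, *Idh3a* and *Fh1* lay at 27.7 to 28.7, 13.9 to 14.9, 9.43 to 9.72 and 7.94 to 9.02 CPM in the other 3. For these genes any whole number of counts gives a gap past the critical value. The test therefore decides nothing for them, and the chance rate does not apply. All 7 gaps come from 1 library and are not separate results.

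The genotype effect was called different between 24 h and 3 h, by edgeR's interaction test, for *Idh1* (-0.387 on the log2 scale), *Acly* (-0.538), *Sdhc* (-0.292), *Mdh2* (-0.289), *Pdk1* (-0.571), *Pdp2* (-0.848), *Pcx* (-1.058), *Slc25a1* (-0.533), *Slc25a10* (-0.64) and *Got1* (0.355). *Sdhc* kept its call in only 9 of 21 alternatives and *Got1* in 11, and the others in 17 to 20.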

How the results depend on the processing

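Settings that moved counts of calls are given first. DESeq2 on all 13 libraries called 68 genes for genotype at 3 h, 61 at 24 h, 36 for the interaction, and 5614 and 5938 over time in AclyM-WT and AclyM-KO, against 1844, 1659, 1145, 8949 and 9037. Of the 9 genes it called 0 at 24 h, 0 for the interaction and 5 over time in AclyM-KO. With the shallow library it moved the median change of all genes over time to 0.27 in both genotypes. Leaving out 1 library gave 1213 to 2082 genes at 3 h and 1060 to 2132 at 24 h, and of the 9 genes 0 to 1 at 3 h, 1 to 2 at 24 h and 1 to 3 for the interaction. The lowest gene counts came without AclyM-WT 3 h replicate 3 and AclyM-KO 24 h replicate 1. Same-numbered replicates did not deviate together (r from -0.02 to 0.11), so numbers were not taken as pairs. In the replicate block AclyM-WT 24 h replicate 4 was alone under its number, so it did not inform the comparisons there. The replicate block called 1035 genes at 24 h and 1 of the 9 at 3 h (*Mdh1*, 0.18, adjusted p 0.0485 in edgeR), and left *Mdh1* at 0.000221 at 24 h. It also called *Ogdh* over time in AclyM-WT (0.14, 0.0471) and lost the interactions of *Sdhc*, *Mdh2* and *Got1*. No other call of the 9 genes, or of a list gene in the contrast that named it by the rule, changed in the block. Other calls of list genes for genotype at a single time were not examined in it. The RLE factors called 1 of the 9 at 3 h. At 24 h, 2 of the 9 were called with only the libraries compared, with upper-quartile factors and without the filter, which also gave 2 for the interaction.

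The cause of these changes was not tested. Signs turned for values near 0 that were not called, and in DESeq2 on 13 libraries for the called falls over time of *Idh1* in AclyM-WT and *Aco1* in AclyM-KO. *Acod1* at 24 h was 0.0915 with 13 libraries, 0.186 in DESeq2 with 13 and -0.0155 to 0.0146 without single libraries, and its interaction was 0.0113 and 0.111 in those fits of 13. *Aco1* over time in AclyM-WT was 0.0743 (upper quartile) and 0.189 (DESeq2, 13 libraries), and 0.0127 in AclyM-KO in the latter, which gave *Idh1* 0.0141 in AclyM-WT. At 3 h *Idh1* was -0.0167 (upper quartile) and -0.00454 (DESeq2, 13 libraries), *Idh3a* -0.00533 and *Ogdh* -0.0104 (upper quartile). Without single libraries they reached -0.0127 to 0.0111, -0.116 to 0.134 and -0.0354 to 0.0473, and *Fh1* -0.0697 to 0.0313.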
